A study of Mus musculus with 4 samples.

Results

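The miRNAs of control mouse embryonic stem cells were described from the 2 arrays of cells given an siRNA against GFP, a sequence that the mouse genome does not encode. Those 2 arrays are part of a series of 4, and every mouse miRNA on them was taken, which gave 567 mouse names out of 577 miRNA names on the array. The other 10 names belong to viral miRNAs. The cells were of the embryonic stem cell line A3-1, grown in DMEM with 20% serum, non-essential amino acids and LIF, the cytokine that holds mouse stem cells in the undifferentiated state. They were collected 48 h after the siRNA, RNA was taken with Trizol, and 100 ng of total RNA was labelled with Cy3 for a single-colour Agilent array. The series was made to study LIN28A, an RNA-binding protein that binds let-7 precursors and blocks their maturation. No array of untreated cells was used here, so every value is that of cells that had received an siRNA. Nothing in the labels says that replicates 1 and 2 came from separate cultures, so the spread between them may be technical. No test was made, since there is 1 group of 2 arrays.

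A miRNA is cut from a hairpin by Drosha and Dicer, which leaves a duplex of a 5p arm and a 3p arm. One strand is usually kept by an Argonaute protein, and the other, often written with a star, is mostly discarded. The kept strand finds its targets mainly through its seed, bases 2 to 8. Neighbouring hairpins are often cut from 1 primary transcript, so that a cluster is transcribed together. In mouse embryonic stem cells the miR-290-295 cluster is known as the characteristic miRNA locus, and several of its members share a seed and promote the rapid cell cycle of these cells.

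The sequences below are shown because the shares, seeds and arm ratios described here turn on them. The bright names miR-720, miR-292-3p and miR-709 are named only. They are from RefSeq, build GRCm38.p6, written 5′ to 3′ with the seed in capitals. The first set holds 7 of the 14 names of the miR-290-295 cluster, among which miR-295, miR-291a-3p and miR-294 have the same seed, miR-291b-3p and miR-290-3p differ from it at its last base, and miR-293 has another one.
miR-295: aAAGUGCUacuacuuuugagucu
miR-291a-3p: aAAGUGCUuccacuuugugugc
miR-294: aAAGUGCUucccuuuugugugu
miR-291b-3p: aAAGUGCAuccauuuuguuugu
miR-290-3p: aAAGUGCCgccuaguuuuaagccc
miR-293: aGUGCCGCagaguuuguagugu
miR-290-5p: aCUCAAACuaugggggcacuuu

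The second set holds miRNAs of the miR-17-92 cluster and of its paralogs, the miR-106b-25 and miR-106a-363 clusters. It is grouped by seed, with the miR-17 group first, then miR-18a, the miR-19 pair and the miR-92 group.
miR-20a: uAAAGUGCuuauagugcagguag
miR-20b: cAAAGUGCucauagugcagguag
miR-106b: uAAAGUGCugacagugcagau
miR-93: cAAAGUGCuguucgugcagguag
miR-106a: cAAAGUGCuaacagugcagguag
miR-17: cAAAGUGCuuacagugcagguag
miR-18a: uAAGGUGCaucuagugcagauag
miR-19b: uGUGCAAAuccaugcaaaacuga
miR-19a: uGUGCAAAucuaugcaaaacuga
miR-92a: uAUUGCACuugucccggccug
miR-25: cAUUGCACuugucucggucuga
miR-363: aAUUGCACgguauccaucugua

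The third set holds bright miRNAs of other loci, each with a seed of its own among those printed.
miR-1224: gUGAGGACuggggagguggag
miR-494: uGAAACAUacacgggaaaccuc
miR-690: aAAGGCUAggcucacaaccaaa
miR-130a: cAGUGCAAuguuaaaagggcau

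Levels are total gene signals, the background-subtracted intensity that the scanner software sums over all probes of a miRNA. A miRNA had between 1 and 4 probes, each printed in 5 to 20 spots. Signals of different miRNAs depend on how well each is labelled and bound, and on the number of probes summed. Ranks, shares and arm ratios here are therefore of array signal and not of molecules. The summed signal of the mouse miRNAs was 146243 on replicate 1 and 155292 on replicate 2, with values below 0 counted as 0. No spot was saturated on either array, and 32.5% and 32.9% of the spots were well above background.

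A small number of miRNAs held most of the signal. The 10 brightest held 70.6% of it on replicate 1 and 70.7% on replicate 2 (mean 70.7% ± 0.101, SD, n = 2), and they were the same 10 miRNAs on both arrays. Adding the members down to rank 25 brought the share to 81.8% and 82.4%, and down to rank 100 to 94.8% and 95.2%. To reach 50% of the signal took 5 miRNAs on replicate 1 and 6 on replicate 2, and to reach 90% took 60 and 56. Only 4 miRNAs exceeded a signal of 10000 on each array, while 222 of the 567 on replicate 1 and 221 on replicate 2 were at or below 0.

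The brightest name was miR-720, with 22572 on replicate 1 and 26343 on replicate 2, which is 15.4% and 17.0% of the signal. This sequence was later recognised as a tRNA fragment and withdrawn from miRBase, so its signal is not that of a miRNA in the present sense. Leaving it out of the total, the 10 brightest of the remaining names, with miR-19b now among them, held 67.4% and 66.8%. By total gene signal the next 4 names were all 3p arms of the miR-290-295 cluster. Of these miR-295 read 16590 and 16629, and miR-291a-3p read 14773 and 14904. Their replicates lay closer together than those of miR-720. A lower level was seen for miR-294, at 11039 and 10398, followed by miR-292-3p at 8960 and 8985. These sums take 3 probes for miR-291a-3p and miR-294 and 2 for miR-295 and miR-292-3p. By the brightest probe alone, as a mean of both arrays, the order changed. There miR-494 at 5784, miR-292-3p at 5371 and miR-1224 at 4246 were above miR-294 at 3964. The rest of the 10 brightest were miR-1224, miR-494, miR-293, miR-690 and miR-709. Among them miR-1224, which is made from a short intron without Drosha, read 8128 and 8771. The Dlk1-Dio3 member miR-494 read 7474 and 8177, and miR-293 read 6552 and 6658. The 2 probes of miR-494 were unequal, with 5492 and 6075 for the 14-base target and 1981 and 2102 for the 15-base target. In 211 of the 237 detected miRNAs with probe targets of different length, the longest was the brightest. The arrays lay farther apart at miR-690, with 4044 and 4884, and at miR-709, with 3098 and 4092. Both were higher on replicate 2.

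**Figure D1:**
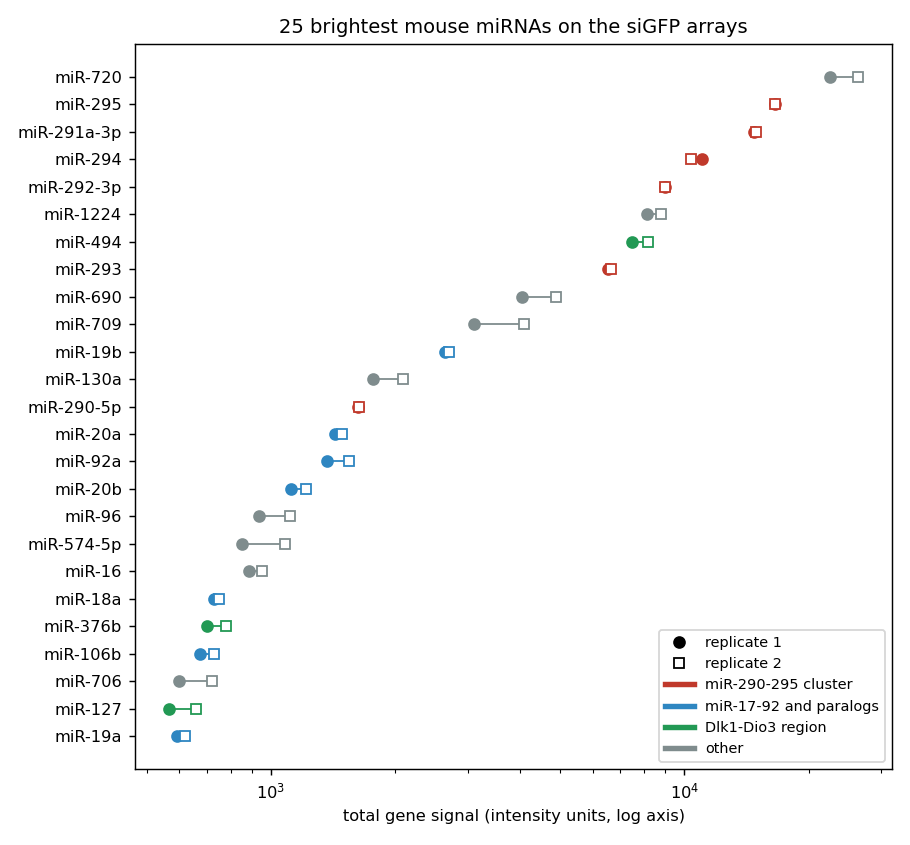
Total gene signal (log axis) of the 25 brightest mouse miRNAs, with replicate 1 as filled circles, replicate 2 as open squares and colours for the genomic group. The miR-290-295 members lie almost on top of each other between arrays, while miR-720, miR-690 and miR-709 are higher on replicate 2.

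From rank 11 to 25 by mean signal the list was led by miR-19b at 2635 and 2693, a member of the miR-17-92 cluster. It was followed by miR-130a at 1764 and 2090, which shares the core of the miR-19 seed shifted by a base. The 5p arm miR-290-5p read 1619 and 1630. Next came miR-20a at 1426 and 1484, miR-92a at 1364 and 1541 and miR-20b at 1118 and 1215. These 3 belong to the miR-17-92 family of clusters, whose products are known to promote proliferation. The sensory-organ miRNA miR-96 read 936 and 1109, miR-574-5p read 849 and 1081, and miR-16, a known repressor of cell cycle genes, read 885 and 950. The last 6 of the 25 were miR-18a, miR-376b, miR-106b, miR-706, miR-127 and miR-19a. Of these miR-18a read 728 and 750, miR-706 read 597 and 720, and miR-19a read 591 and 620.

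By genomic position the signal was concentrated in few loci. Names on the same chromosome and strand within 10 kb of each other were joined, which gave 257 loci. Each name was placed at 1 locus, so a miRNA encoded at several loci had all its signal counted at 1 locus. The 50 loci that hold more than 1 hairpin had 64.8% of the signal on replicate 1 and 62.6% on replicate 2. The rest came from lone miRNAs, of which miR-720, miR-1224, miR-690, miR-709 and miR-130a were the brightest.

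The miR-290-295 cluster (mm9 chr7:3218647-3220838, plus strand, spanning the probe targets) had 41.5% of the signal on replicate 1 and 38.9% on replicate 2 (mean 40.2% ± 1.84, SD, n = 2). Of its 14 names 13 were detected on both arrays, against 43.0% of all 567 names, and miR-291b-5p was the one that was not. With miR-720 left out of the total, the shares were 49.1% and 46.9%. The 7 3p arms had 39.7% and 37.2%, against 1.81% and 1.74% for the 7 5p arms. The 3 miRNAs with the shared seed printed above, miR-295, miR-291a-3p and miR-294, had 29.0% and 27.0% together. This is a sum of 3 named miRNAs and not the planned share by seed. That share was void, since too little of the signal had a matched sequence. The 3 miRNAs differ outside the seed, since miR-291a-3p and miR-294 differ at 3 of 22 positions and miR-294 and miR-295 at 10 of 22. In the same cluster miR-291b-3p read only 17.5 and 21.1.

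The 3 clusters of the miR-17-92 family had 7.16% of the signal on replicate 1 and 7.20% on replicate 2. Since each name was placed at 1 locus, the shares of single clusters and of members within them depend on that placement. The miR-17-92 cluster itself (mm9 chr14:115442915-115443718, plus strand) had 4.92% and 4.87%, led by miR-19b. Next to it miR-20a was above miR-92a on replicate 1 and below it on replicate 2, and miR-18a and miR-19a were dimmer on both arrays. The miR-106b-25 cluster (mm9 chr5:138606560-138607031, minus strand) had 1.16% and 1.22%. Its miR-106b read 672 and 726, miR-93 read 517 and 577, and miR-25 read 498 and 570. These 3 guides kept that order on both arrays. The miR-106a-363 cluster on the X chromosome (mm9 chrX:50094874-50095732, minus strand) had 1.07% and 1.11%, of which miR-20b supplied 70.8%. Its miR-106a read 299 and 337, and miR-363 read 115 and 139.

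Paralogs of this family differ by few bases. The sequences of miR-17 and miR-106a differ at 1 of 23 positions, those of miR-20a and miR-20b at 2 of 23, and those of miR-19a and miR-19b at 1 of 23. Probes may bind such close copies in part, so the split of signal between them is uncertain. With that limit, miR-19b was above miR-19a on both arrays and miR-20a above miR-20b.

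The Dlk1-Dio3 region of chromosome 12 is an imprinted locus whose miRNAs are made from the maternal copy, and their expression is known to vary between pluripotent lines. From miR-770 to miR-410 it had 73 names, of which 50 were detected on both arrays, against 43.0% of all 567 names. The region had 10.01% and 10.6% of the signal. Without miR-494 the rest of the region had 4.90% and 5.32%. The distal cluster (mm9 chr12:110947280-110981994, plus strand) had 8.58% and 9.01%, of which miR-494 made up 59.0%. After it came miR-376b at 700 and 778, miR-376a at 507 and 611, miR-300 at 476 and 574 and miR-410 at 372 and 424. These were all higher on replicate 2. The proximal cluster (mm9 chr12:110801929-110833597, plus strand) had 1.25% and 1.41%, with miR-127, a repressor of the retrotransposon-derived gene Rtl1, at 567 and 659 and miR-136 at 301 and 408.

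Smaller clusters followed. The miR-183-96-182 cluster, known from sensory cells, had 0.938% and 1.09%, and its miR-182 read 273 and 361. The cluster of miR-15a and miR-16 had 0.755% and 0.762%, with miR-15a at 220 and 233.

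**Figure D2:**
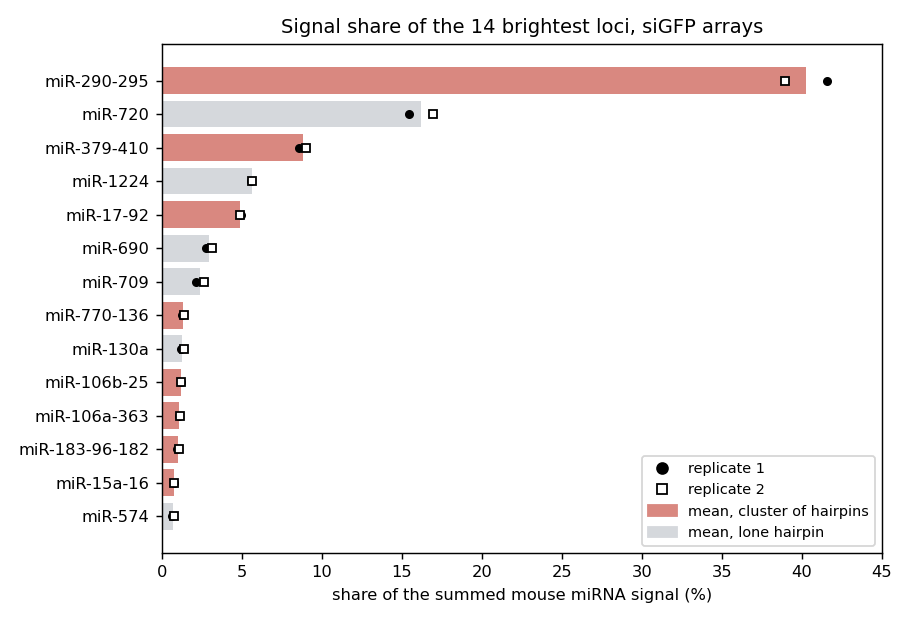
Share of the summed mouse miRNA signal (%) at the 14 brightest loci. Bars are the mean of both arrays, red for clusters and grey for lone hairpins, and the circle and square are replicates 1 and 2. The miR-290-295 bar, at 40.2%, is the longest, ahead of miR-720 at 16.2%.

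Both arms could be compared for 157 hairpins. Both arms were detected on both arrays in 34 of them, only the 5p arm in 28, only the 3p arm in 31, and neither in 55. In the other 9 an arm was detected on 1 array alone. Among the 34 the brighter arm was the 5p arm in 17 and the 3p arm in 17, and the same arm was brighter on both arrays in 31. The median absolute log2 arm ratio was 2.87 on replicate 1 and 3.02 on replicate 2. The brighter arm was at least 2-fold above the other in 28 hairpins and at least 10-fold in 15.

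The widest ratio was that of miR-20b, where the 5p arm read 1118 and 1215 and the star arm 3.80 and 4.90 (log2 ratio 8.08 ± 0.17, SD, n = 2). The star arm is among the 5 dimmest detected names, so the ratio rests on a signal near the limit of detection. Its hairpin is shown with both arms in capitals (GRCm38.p6 chrX:52742113-52742192, minus strand).
Mir20b: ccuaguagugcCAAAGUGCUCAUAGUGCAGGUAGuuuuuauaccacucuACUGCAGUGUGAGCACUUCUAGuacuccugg
Large ratios towards the 5p arm were also seen at miR-18a (6.20 ± 0.06), miR-20a (6.02 ± 0.50) and miR-106b (5.55 ± 0.01), all of the miR-17-92 family. In the same family miR-17 had a ratio of only 1.13 ± 0.08, with its 5p arm at 285 and 314 and its star arm at 136 and 138. A wide ratio towards the 3p arm was seen at miR-376a of the Dlk1-Dio3 region (log2 ratio of 5p to 3p -6.10 ± 0.08). Its 3p arm read 507 and 611, and its star arm, also among the 5 dimmest detected names, read 7.09 and 9.25.

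In the miR-290-295 cluster the 3p arm was the brighter one in all hairpins but miR-290. The ratio of 5p to 3p was -7.34 ± 0.51 at miR-293, -6.60 ± 0.10 at miR-295 and -5.85 ± 0.07 at miR-294. At miR-295 the 5p arm read 163 and 180 against the values of its 3p arm above. The arms of miR-290 went the other way, with 1619 and 1630 for the 5p arm and 183 and 179 for the 3p arm (log2 ratio 3.17 ± 0.03). The hairpins of miR-295 and of miR-290, named Mir290a in RefSeq, are shown for this contrast with both arms in capitals (GRCm38.p6 chr7:3220773-3220841 and chr7:3218626-3218708, plus strand).
Mir295: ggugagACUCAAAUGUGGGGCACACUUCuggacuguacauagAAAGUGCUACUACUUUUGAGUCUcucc
Mir290a: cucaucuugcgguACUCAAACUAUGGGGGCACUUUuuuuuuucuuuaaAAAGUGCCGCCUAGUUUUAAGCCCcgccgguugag

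The arm named as the star was the brighter one in 2 of the 21 hairpins that have a star name and both arms detected. At miR-154 of the Dlk1-Dio3 region the star arm read 276 and 251 against 67.9 and 89.9 for the other arm (log2 ratio of 5p to 3p -1.75 ± 0.38). Its hairpin (GRCm38.p6 chr12:109738433-109738498, plus strand) has both arms in capitals.
Mir154: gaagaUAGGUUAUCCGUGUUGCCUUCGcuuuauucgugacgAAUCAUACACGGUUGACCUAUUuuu
At miR-140, a miRNA known from cartilage, the star arm read 67.5 and 73.0 against 55.4 and 57.6. The smallest ratios were those of miR-369, miR-150, miR-335, miR-411 and miR-140. In miR-369, miR-150 and miR-335 the brighter arm was not the same on both arrays, so their arms did not differ beyond the spread between replicates.

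**Figure D3:**
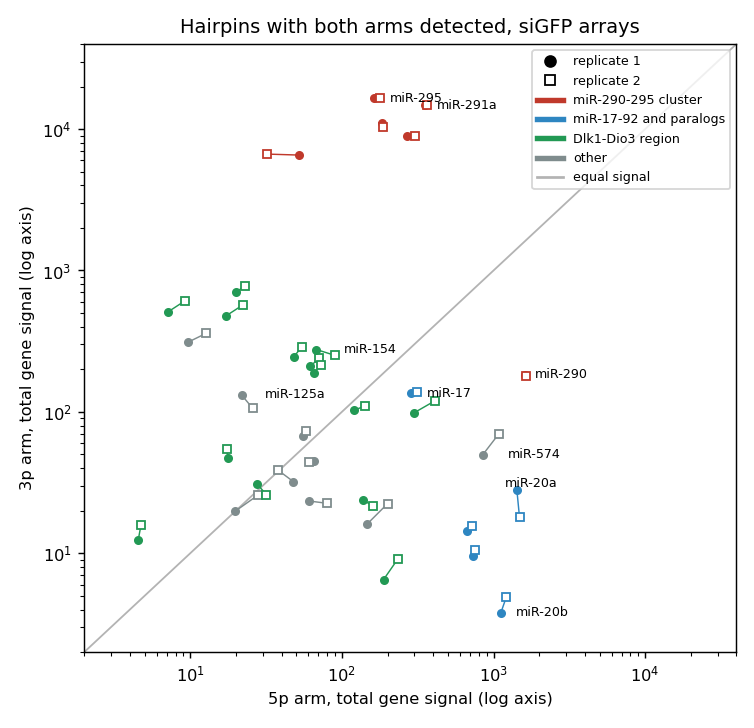
Total gene signal of the 3p arm (vertical log axis) and of the 5p arm (horizontal log axis) for the 34 hairpins with both arms detected. A line joins replicate 1 (filled) and replicate 2 (open), and the grey diagonal marks equal signal. The miR-290-295 hairpins lie far above the diagonal except miR-290, and miR-20b lies farthest below it.

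The scanner software called 245 mouse miRNAs detected on replicate 1 and 256 on replicate 2. Of these 244 were detected on both, which is 43.0% of the 567, and 310 were detected on neither. The call was the same on both arrays for 97.7% of the names. Of the 13 names detected on 1 array, 12 were detected on replicate 2. All 114 miRNAs with a mean signal above 100 and all 72 between 30 and 100 were detected on both arrays, against 50 of 71 between 10 and 30 and 8 of 47 between 3 and 10. Detection was therefore mixed below a signal of 30. The dimmest detected names were miR-20b*, miR-540-5p, miR-674, miR-431* and miR-376a*, and miR-20b* read 3.80 and 4.90. The brightest names not detected were miR-362-3p at 15.6 and 13.2, miR-468, miR-467e*, miR-221 and miR-22*.

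The labelled cell type was set against lists of marker miRNAs. For comparison, 43.0% of all 567 names were detected on both arrays and 310 on neither. All 9 listed miR-290-295 names were detected, with 41.3% and 38.7% of the signal. None of the 5 names of the miR-302 cluster, known from primed pluripotent cells, was detected, and miR-367, the brightest of them, read 14.8 and 6.87. None of 9 names of the let-7 family, miR-98 included, was detected either, and let-7g read 13.2 and 8.34, let-7f 11.0 and 9.99 and let-7a 10.5 and 9.59. Let-7 is known to be abundant in differentiated cells. A signal that is not called detected gives only an upper bound on the level.

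Of the 12 fibroblast or feeder markers on the array 4 were detected on both arrays, against 43.0% of all 567 names. They were miR-22 at 479 and 508, miR-21 at 321 and 250, miR-31 at 29.2 and 34.9 and miR-143 at 20.3 and 19.1. The signal of miR-143 lay in the range where detection was mixed. Of the rest miR-214 was detected on 1 array, with 7.27 on replicate 1 and 10.7 on replicate 2. Not detected were miR-221, at 10.7 and 11.6, and miR-145, miR-199a-5p, miR-199b, miR-222, miR-10a and miR-10b, which read near or below 0. The list summed to 0.594% and 0.538% of the signal. All 6 epithelial names, the miR-200 family with miR-205, were detected, with miR-205 at 157 and 130, miR-200a at 107 and 102 and miR-141 at 100.1 and 90.1. Of the neural names miR-124, miR-128 and miR-219 were detected, with miR-124 at 136 and 163, while miR-9 was not. Of the blood names miR-142-3p was detected at 94.0 and 64.9, while miR-223 and miR-451 were below 0. Also detected were miR-150 at 19.7 and 28.1 and miR-155 at 23.1 and 19.9, both in the range of mixed detection. That is 3 of 6 neural and 3 of 7 blood names, shares near that of all names, so these counts are no result about those lists. None of the 4 muscle names and none of the 5 endoderm and liver names was detected. Each list other than miR-290-295 held less than 1% of the signal. In RNA from a whole culture, few cells with much of a miRNA and many cells with little cannot be told apart.

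**Figure D4:**
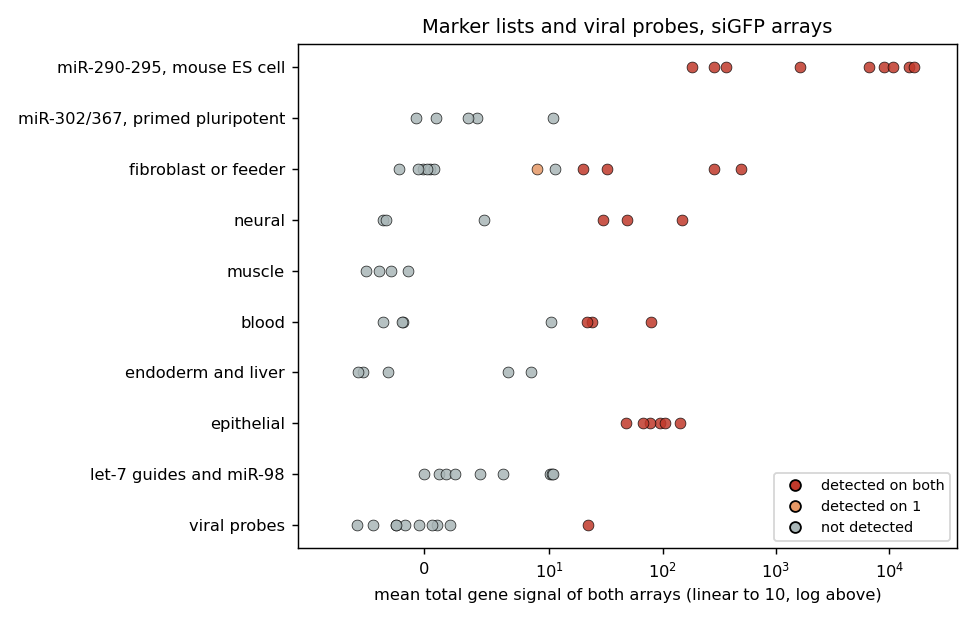
Mean total gene signal of both arrays for each member of the marker lists and for the viral probes, on an axis that is linear up to 10 and logarithmic above. Red points were detected on both arrays, orange on 1 and grey on none. The miR-290-295 names lie to the right, and the let-7, miR-302 cluster, muscle and endoderm names are all grey.

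The arrays agreed closely over most of the detected miRNAs. For this each array was divided by its 75th percentile over the 244 miRNAs detected on both, which was 231 and 233. The median absolute difference was 0.17 on the log2 scale, or 1.13-fold, and 224 miRNAs (91.8%) lay within 0.5. Without scaling, 38 of the 244 (15.6%) differed by more than 2 times the combined error that the scanner software gives for the 2 signals. Across the 244 miRNAs Pearson's r of the log2 signals was 0.987 and Spearman's rho 0.983, as a description over miRNAs that share the same 2 arrays. The median absolute difference was 0.10 for the 17 miRNAs with a mean signal over 1000 and 0.41 for the 8 with a mean of at most 10.

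Of the 20 miRNAs that differed by more than 0.5, 17 were higher on replicate 1, and 11 of these come from 1 locus. They belong to the miR-466, miR-467, miR-669 and miR-297 families in an intron of Sfmbt2 (mm9 chr2:10388586-10436549), a rodent-specific array of repeated hairpins. This group was formed after its values were seen. Of its 24 names 15 were detected on both arrays, against 43.0% of all 567 names. Of the 15, 12 were higher on replicate 1, with a median difference of 0.94. All of the 8 largest differences were in it. At miR-467b the signals were 271 and 136, at miR-467a 128 and 60.2, at miR-467a* 98.4 and 43.8 and at miR-467e 96.2 and 44.6. At miR-466e-3p they were 65.0 and 25.8, and at miR-297c 83.7 and 44.0. The remaining pair, miR-297b-3p at 15.2 and 3.39 and miR-466h at 12.7 and 4.68, lay in the range where detection was mixed. Others of the locus did not take part, since miR-466f-3p read 158 and 194 and miR-466c-5p read 138 and 142. The summed signal of the locus was 1635 on replicate 1 and 1117 on replicate 2. Its members come from repeated hairpins, and their sequences were not compared here. Their probes may share targets, so the members do not count as independent. Without them r was 0.994 over 229 miRNAs. The 6 others higher on replicate 1 by more than 0.5, named after their values were seen, were miR-218, miR-297a, miR-135b, miR-293*, miR-20a* and miR-142-3p. Of these miR-297a, a member of the same family whose probe target is mapped to chromosome 10, read 142 and 80.2.

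Directions of small differences depend on the scaling, whose percentile rests on few miRNAs. In the Dlk1-Dio3 region 43 of 50 detected miRNAs were higher on replicate 2, against 151 of all 244, and it was 41 of 50 when each array was divided by its total signal, against 121 of 244. In the Sfmbt2 group 12 or 13 of 15 were higher on replicate 1 under each of the 4 scalings compared. The miR-290-295 miRNAs had no direction that held, since 8 of 13 were higher on replicate 1 with the percentile, 3 with no scaling and 10 with the total signal.

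**Figure D5:**
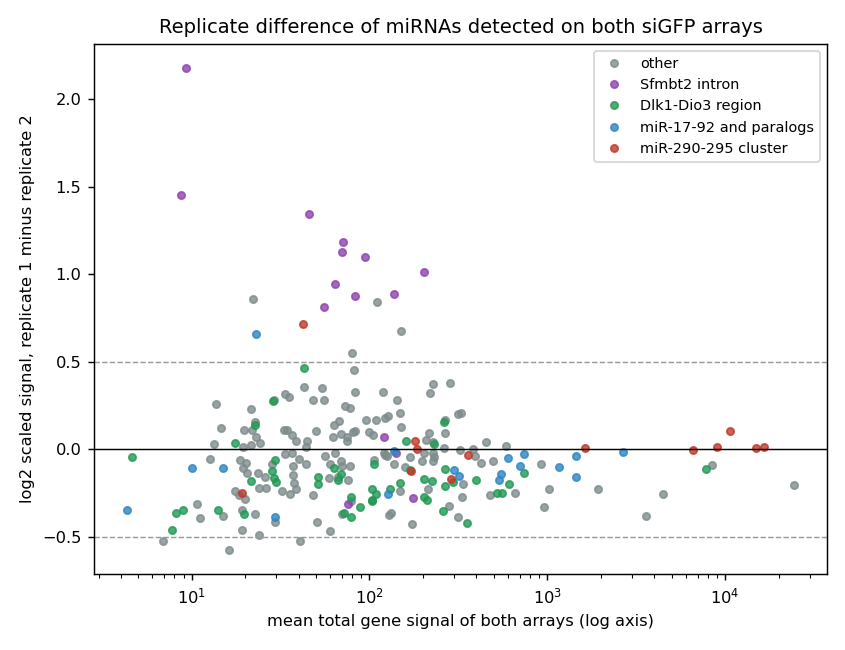
Difference of the scaled log2 signals, replicate 1 minus replicate 2, against the mean total gene signal (log axis) for the 244 miRNAs detected on both arrays. Dashed lines mark 0.5 in either direction. Purple points of the Sfmbt2 intron make up 11 of the 17 above the upper line.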

How the data were processed

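The deposited scanner files hold intensity values of 2 siGFP arrays. The array design was 019119. Agilent Feature Extraction is given as version 9.5.1.1 per the file headers but as 9.5.3.1 per the submitters' processing notes. The authors' deposited intensity per miRNA, the total gene signal, is background-subtracted, summed over probes, not scaled between arrays, and can be below 0. The arrays' number limits the precision. Members and lists were chosen with earlier results of these data known.

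Shares used signals with values below 0 set to 0. Loci joined names at most 10 kb apart (mm9, per the file headers), with 1 locus per name, and 7 names had no mapped coordinate. Arms were paired by name within 100 bp and ordered by coordinate. Named miRNAs were the 25 brightest, up to 5 members of each of the 10 brightest clusters, the 8 widest and 5 narrowest arm ratios, brighter star arms, the 8 largest replicate differences, let-7, up to 3 per marker list, and the 5 dimmest detected and 5 brightest undetected names. Others were named after their values were seen. RefSeq sequences (GRCm38.p6) matched 388 of 567 names, with 72.5% of the signal. This is under the minimum of 80% set for it, so the planned share by seed is void. Python 3.11.15, numpy 2.4.6, pandas 2.3.3 and scipy 1.17.1 were used. Linkage, pairing and scaling were tested on simulated data. Shares were only set against the same formula on simulated signals above 0, so setting values below 0 to 0 was not tested. In the simulated data the 75th percentile scaling was unbiased over many runs, but single runs were offset by noise, so directions were compared under 4 scalings.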

Additional observations from a re-analysis of the deposited data

Results flagged for a closer look

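A probe set for a miRNA of a mouse herpesvirus, mghv-miR-M1-2, was detected on both arrays, at 20.2 on replicate 1 and 23.6 on replicate 2. The other 9 viral names were not detected, and none of them read above 3.76 on replicate 1 or above 2.01 on replicate 2. Of the 244 mouse miRNAs detected on both arrays, 33 were at or below this viral signal on both arrays, and 200 were above it on both. Those 200 held 99.2% of the signal on each array.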

How the results depend on the processing

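The share of the 10 brightest miRNAs was 71.2% from mean processed signals, 70.1% from the brightest probe alone and 70.9% over detected miRNAs only. The share of miR-290-295 was 42.7% from mean processed signals and 34.5% from the brightest probe. Leaving out miR-720, a setting chosen after seeing the data, gave 67.1% and 48.0% for these shares. The median absolute log2 arm ratio was 2.64 from the brightest probe and 3.52 with no filter on detection (63 hairpins). The median absolute log2 difference between arrays was 0.163 from processed signals, 0.167 from the brightest probe, 0.173 in the authors' deposited table, 0.184 with no scaling, 0.204 with the percentile over all mouse miRNAs, 0.207 with no filter and 0.165 without the Sfmbt2 miRNAs (chosen after seeing the data). With 1 array left out, the values ran from 70.6% to 70.7%, 38.9% to 41.5%, 245 to 256 detected, and 2.87 to 3.02. The difference between arrays has no such value. Requiring spots well above background left 210 miRNAs. The share by seed was not run. No paired analysis was possible because only 1 group is described here. Signals under 30 are limited by background.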
